A study of Mus musculus with 18 samples.

Results

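Matrix metalloproteinases (MMPs), ADAM and ADAMTS proteinases and the tissue inhibitors of metalloproteinases (TIMPs) were followed by their gene symbols in cultured mouse mammary epithelium. Every symbol made of Mmp, Adam, Adamts or Timp and a number, with or without a closing letter for Mmp and Adam, was taken. This gave 79 genes of the 56691 features in the table of the estradiol experiment and 80 of the 56893 features in that of the Torin experiment. Of the 79 genes in the estradiol experiment, 45 had enough counts to be tested: 14 of 23 MMPs, 11 of 33 ADAMs, 16 of 19 ADAMTSs and 4 of 4 TIMPs. Of the 80 genes in the Torin experiment, 50 were tested: 17 of 23 MMPs, 14 of 34 ADAMs, 15 of 19 ADAMTSs and 4 of 4 TIMPs. The genes left out had few or no counts. In the estradiol experiment 9 had none and 25 had between 1 and 58 counts over all libraries, and in the Torin experiment 11 had none and 19 had between 1 and 72. Most were ADAMs, many of them known from the testis.

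Polyadenylated RNA was sequenced from organoids grown from mammary epithelium of wild-type, nulliparous C57BL/6 mice, in 18 libraries of 6 groups, 3 per group. In the estradiol experiment, organoids from mice of about 24 weeks received 10 nM estradiol, the natural ligand of the estrogen receptors, or its solvent ethanol for 11 days of a 12-day culture. In the Torin experiment, organoids from mice of about 15 weeks grew in Matrigel, a basement membrane gel, for 18 days and received 100 nM Torin 1, an inhibitor of the kinase mTOR, or its solvent DMSO. The groups were estradiol and ethanol, Torin D6 and DMSO D6, and Torin D12 and DMSO D12. By the sample titles Torin or DMSO was given for 6 days in D6 and for 12 days in D12, and the design text of the series states the opposite, 12 days in D6 and 6 in D12. The arms also carry separate batch tags, so arm, batch and start of treatment cannot be told apart. Glands of 3 mice were used, and whether the libraries of a group came from separate mice is not given, so p-values measure only the spread between these libraries. All groups had fetal serum in the medium on the first day of culture.

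MMPs and ADAMTSs are zinc proteinases that cut collagens, proteoglycans and other matrix proteins outside the cell, while most active ADAMs cut membrane proteins at the cell surface and release growth factors or receptor fragments. TIMPs bind the active site of these enzymes and block them. In the mouse mammary gland such proteinases are known from duct elongation, side branching and the remodelling after weaning, in which Mmp2, Mmp3 and Mmp14 have been studied most, and Adam17 is known to release amphiregulin, the growth factor through which estrogen drives duct growth.

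Several MMP genes lie side by side on mouse chromosome 9, in the order Mmp13, Mmp12, Mmp1b, Mmp3, Mmp1a, Mmp10, Mmp8, Mmp27, Mmp20 and Mmp7. The promoter windows of RefSeq (build GRCm38.p6, 250 bases before to 50 after a gene start) held TGANTCA, the motif of AP-1 transcription factors, in 8 of these 10 genes. Among all 32851 windows 7.81% held it, and among the 50 metalloproteinase and TIMP genes with a window 13 did. Both strands were searched. The full estrogen response element, GGTCA and TGACC with 3 bases between them, was in 0.07% of all windows and in 0 of the 50 genes, which says only that these letters are not in these windows. The 6 promoters printed here belong to the genes of this neighbourhood that passed the test in Torin D6, all with higher counts under Torin. Capitals mark the AP-1 motif, whose first base lay 35 bases before the start in Mmp13, 44 in Mmp12, 93 in Mmp1b, 46 in Mmp3, 63 in Mmp10 and 63 in Mmp7. A match is a description of the letters and not evidence of binding. The windows are chr9:7272264-7272563, chr9:7347124-7347423, chr9:7387977-7388276 on the minus strand, chr9:7445572-7445871, chr9:7502092-7502391 and chr9:7691840-7692139, in GRCm38.p6 positions, while the submitters' notes name GRCm39 for the counts.
Mmp13: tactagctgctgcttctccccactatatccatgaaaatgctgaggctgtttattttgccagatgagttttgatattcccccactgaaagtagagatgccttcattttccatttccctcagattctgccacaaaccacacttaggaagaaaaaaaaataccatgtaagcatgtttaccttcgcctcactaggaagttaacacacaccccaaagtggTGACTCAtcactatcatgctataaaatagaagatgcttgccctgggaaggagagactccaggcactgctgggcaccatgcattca
Mmp12: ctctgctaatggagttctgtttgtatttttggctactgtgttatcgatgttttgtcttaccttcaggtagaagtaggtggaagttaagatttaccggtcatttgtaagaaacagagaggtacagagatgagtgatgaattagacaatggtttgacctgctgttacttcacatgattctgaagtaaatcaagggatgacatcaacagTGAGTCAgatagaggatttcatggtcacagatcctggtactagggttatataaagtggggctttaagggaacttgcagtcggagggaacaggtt
Mmp1b: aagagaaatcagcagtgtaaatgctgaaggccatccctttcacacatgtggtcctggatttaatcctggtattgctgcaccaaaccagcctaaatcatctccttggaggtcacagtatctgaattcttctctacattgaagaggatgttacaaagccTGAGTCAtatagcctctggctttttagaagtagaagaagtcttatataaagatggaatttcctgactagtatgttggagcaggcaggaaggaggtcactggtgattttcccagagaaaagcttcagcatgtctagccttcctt
Mmp3: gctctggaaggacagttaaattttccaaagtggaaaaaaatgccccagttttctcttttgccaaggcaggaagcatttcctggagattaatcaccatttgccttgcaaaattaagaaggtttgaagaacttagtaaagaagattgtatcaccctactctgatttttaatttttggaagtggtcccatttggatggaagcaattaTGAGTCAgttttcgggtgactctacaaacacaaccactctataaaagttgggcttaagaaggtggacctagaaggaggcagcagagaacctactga
Mmp10: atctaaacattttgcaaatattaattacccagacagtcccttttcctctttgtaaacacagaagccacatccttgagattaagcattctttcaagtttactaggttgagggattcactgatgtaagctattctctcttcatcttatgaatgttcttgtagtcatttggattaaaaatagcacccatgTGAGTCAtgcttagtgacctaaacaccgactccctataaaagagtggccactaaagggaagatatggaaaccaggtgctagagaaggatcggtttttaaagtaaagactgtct
Mmp7: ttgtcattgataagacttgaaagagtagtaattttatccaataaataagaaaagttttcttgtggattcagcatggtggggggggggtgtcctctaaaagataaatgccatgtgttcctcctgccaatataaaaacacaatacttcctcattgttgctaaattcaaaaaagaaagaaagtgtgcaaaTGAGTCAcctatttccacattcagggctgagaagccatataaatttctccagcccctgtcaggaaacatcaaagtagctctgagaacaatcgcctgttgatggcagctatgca
Mmp1a and Mmp20 also held the motif and Mmp8 and Mmp27 did not. Of these, Mmp1a alone had enough counts to be tested, in the Torin experiment, and it passed in neither arm with all libraries. Outside this neighbourhood the motif was in Adam19, Adam1b, Adam20, Adam25 and Adam29. Adam19 fell in Torin D6 (log2 fold change -2.82) and rose under estradiol (0.76), and the others had too few counts to be tested. Whether the motif goes with a change under either treatment was not tested.

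Depth was 20637765 to 24312389 counts per library with estradiol or ethanol and 23239364 to 28910688 with Torin or DMSO, and replicates varied by 5.27% and 20.2% around their group (biological coefficient of variation). None of 11 luminal and 9 basal epithelial markers was at 0 in any library. Fibroblast markers were present too: their summed level over 12 genes was 486 to 580 CPM in estradiol and 351 to 395 CPM in ethanol libraries, 307 to 346 CPM in Torin D6 and 964 to 1338 CPM in DMSO D6 libraries, and 783 to 1111 CPM in Torin D12 and 968 to 1126 CPM in DMSO D12 libraries. CPM (counts scaled to a library's TMM-adjusted total) are given as mean ± SD of 3 libraries where not listed one by one. Among leukocyte markers the macrophage gene Adgre1 was at 0 in all 12 Torin and DMSO libraries, as was the T cell gene Cd3e, and no library reached 1 CPM of the pan-leukocyte gene Ptprc. The leukocyte list as a whole summed to 699 to 707 CPM in estradiol and 633 to 663 CPM in ethanol libraries and to between 2165 and 2870.2 CPM in the Torin and DMSO libraries. Cd14 gave most of that sum, at 2287 ± 108 CPM in Torin D6, 2565 ± 264 CPM in DMSO D6, 2545 ± 33.6 CPM in Torin D12, 2738 ± 106 CPM in DMSO D12, 700.2 ± 3.62 CPM in estradiol and 647 ± 14.9 CPM in ethanol libraries. One library stood apart within its group: the third of Torin D6 had far higher Timp2, Mmp14 and Adamts2 than the other libraries of its group, and calls on these genes are given with and without it. In RNA from whole organoids, fewer cells of a type and less RNA per cell cannot be told apart.

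**Figure D1:**
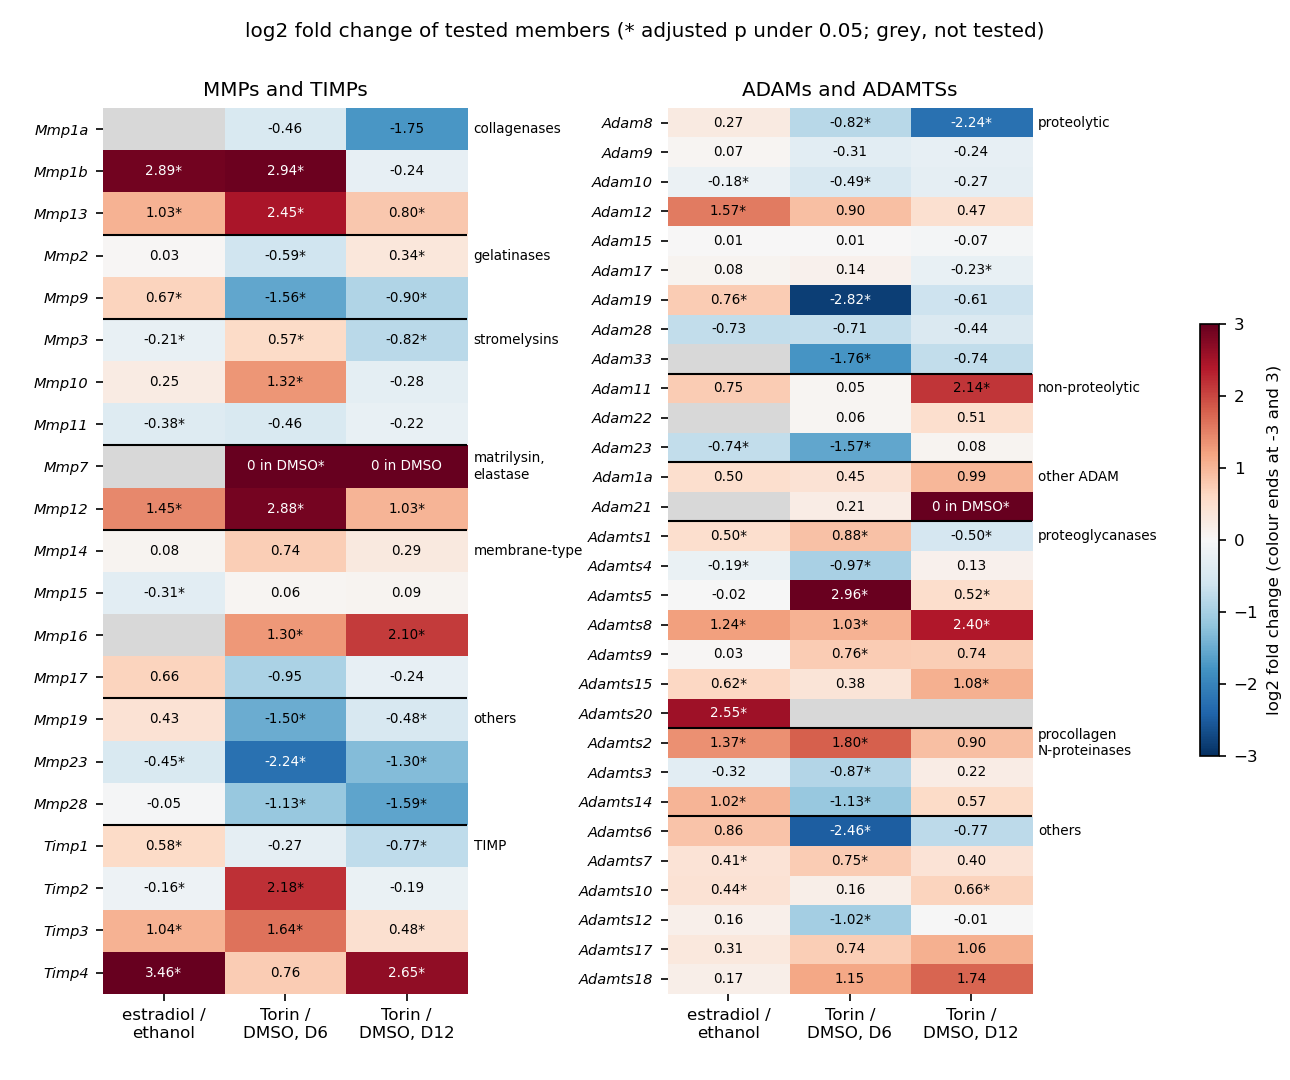
Log2 fold changes of the tested genes, by role, for estradiol over ethanol, Torin over DMSO in D6 and Torin over DMSO in D12. Red is higher and blue lower under treatment, stars mark an adjusted p under 0.05, and grey cells were not tested. Cells reading 0 in DMSO have no count in the vehicle group, so no fold change is printed. The colours of Timp4, Adamts8 and Mmp13 are red in all 3 columns, and those of Mmp9, Adam19 and Timp1 differ between the columns.

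Estradiol raised more of these genes than it lowered. Of the 45 tested, 17 rose and 8 fell and 20 did not pass, by edgeR's quasi-likelihood test at an adjusted p under 0.05. Here and throughout, p was adjusted over all genes tested (15358 in this experiment) by the Benjamini-Hochberg method. These are 37.8% and 17.8% of the genes, against 17.4% of all genes that rose and 16.6% that fell under estradiol (34% called in all). The median log2 fold change was 0.31 over the 45 genes and -0.0060 over all genes. Rises included 3 of the 4 TIMPs, 8 of 16 ADAMTSs, 4 of 14 MMPs and 2 of 11 ADAMs, and none of the falls was larger than -0.74 on the log2 scale. In 35 of the 45 genes (77.8%) the estradiol and ethanol libraries did not overlap, against 46.4% of all genes. Fibroblast markers moved with these results, 8 of 12 rising and 1 falling under estradiol, and their part in the results was not tested. Among epithelial markers 3 of 11 luminal genes rose and 4 fell, and 2 of 9 basal genes rose and 5 fell.

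Among the inhibitors, Timp4, a secreted TIMP that is made in few tissues, had 16.6, 15.9 and 14.0 CPM in the 3 estradiol libraries, against 1.47, 1.47 and 1.26 CPM in the 3 ethanol libraries. All estradiol libraries lay far above all ethanol libraries, by 11.0-fold (log2 fold change 3.46, SE 0.13, adjusted p = 1.45e-10). Timp3, which is held in the matrix and also blocks ADAM17 and the aggrecanases, had 1091, 1147 and 1065 CPM in estradiol and 593, 493 and 518 CPM in ethanol libraries. Its groups were well apart, at 2.06-fold (log2 fold change 1.04, SE 0.057, adjusted p = 4.42e-09), and it took 0.110 to 0.117% of all counts in estradiol and 0.0482 to 0.0566% in ethanol libraries. Timp1, a secreted inhibitor that also signals to cells, had 134, 125 and 129.9 CPM in estradiol and 82.9, 88.6 and 88.3 CPM in ethanol libraries. It rose without overlap (log2 fold change 0.58, SE 0.047, adjusted p = 2.91e-07). Timp2, which blocks MMPs and also helps Mmp14 to activate the zymogen of Mmp2, had 204, 218 and 202 CPM in estradiol and 246, 221 and 231 CPM in ethanol libraries. Its groups lay close together and did not overlap, and it fell slightly (log2 fold change -0.16, SE 0.048, adjusted p = 0.0179). That call was lost without estradiol library 1 or 3 or ethanol library 1 (adjusted p 0.0796, 0.0696 and 0.0737). Timp1, Timp3 and Timp4 lie within the genes Syn1, Syn3 and Syn2. Timp2, Mmp19, Mmp23, Mmp28, Adam17 and Adamts4 overlap another gene without lying wholly within it. Whether the strand was used in counting is not stated, so reads of such pairs may have been mixed.

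**Figure D2:**
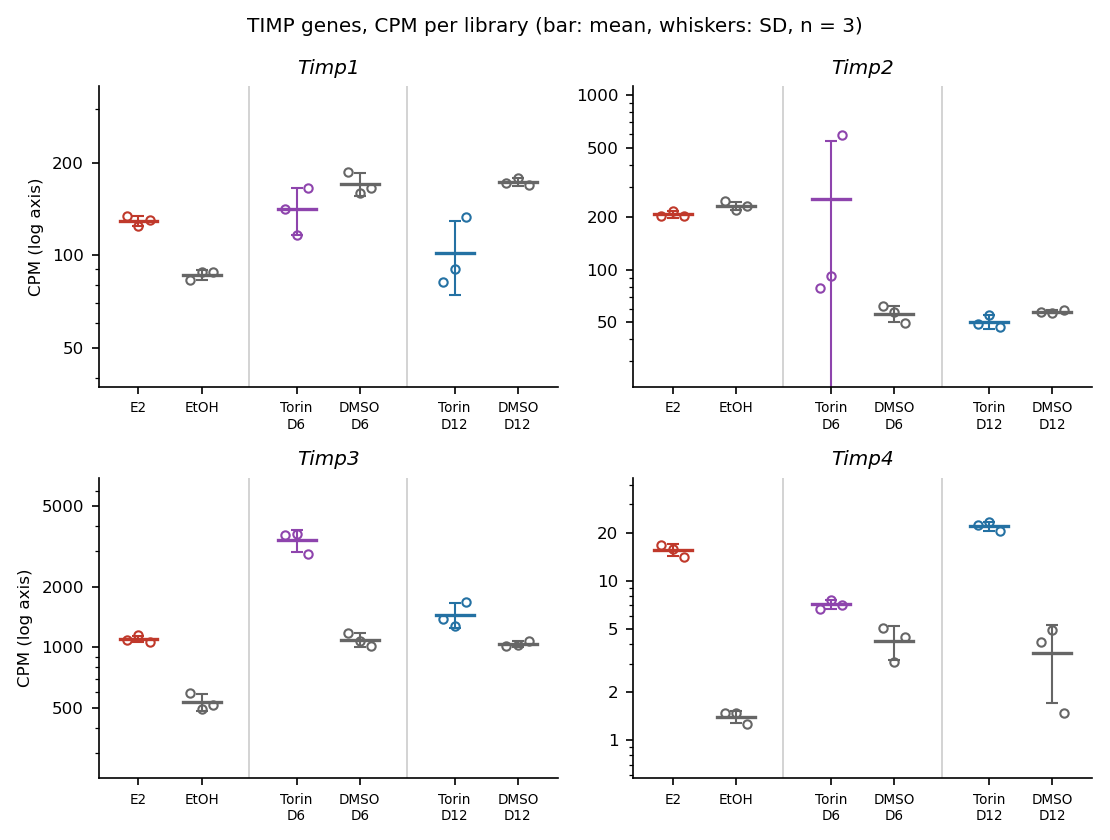
CPM of the 4 TIMP genes in each of the 18 libraries, on a log axis, with circles for libraries, bars for means and whiskers for the SD of 3. Within each pair the treated group is left of its vehicle. Timp4 stands at 15.5 CPM in estradiol against 1.40 CPM in ethanol and at 22.0 CPM in Torin D12 against 3.49 CPM in DMSO D12. One Torin D6 library of Timp2, at 594 CPM, lies far above the other libraries of its group, and the lower whisker of that group runs off the axis because its SD exceeds its mean.

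The collagenases open the triple helix of fibrillar collagen. Mmp13, the main collagenase of the mouse, averaged 98.7 ± 8.96 CPM in estradiol and 48.2 ± 0.734 CPM in ethanol (log2 fold change 1.03, SE 0.059, adjusted p = 6.39e-09). Mmp1b, 1 of 2 mouse counterparts of human collagenase 1, had only 0.72, 0.461 and 0.893 CPM in estradiol and 0.0865, 0.168 and 0 CPM in ethanol libraries. That is 45 counts against 6 in all, a ratio of 7.77 (95% counting interval 3.30 to 22.3), and the estradiol libraries lay above the ethanol ones (log2 fold change 2.89, SE 0.62, adjusted p = 0.00227; 3.77 without ethanol library 2). Whether reads of Mmp1b were mixed with those of Mmp1a, the other counterpart, was not tested. Of the gelatinases, which cut denatured collagen and basement membrane collagen, Mmp9 rose to 15.8 ± 2.41 CPM in estradiol, against 9.96 ± 1.56 CPM in ethanol (log2 fold change 0.67, SE 0.13, adjusted p = 0.00085). Mmp2 averaged 32.3 ± 3.72 CPM in estradiol and 31.7 ± 3.89 CPM in ethanol and did not pass (log2 fold change 0.027, SE 0.09, adjusted p = 0.847). Mmp12, macrophage elastase, averaged 1.98 ± 0.30 CPM in estradiol and 0.712 ± 0.311 CPM in ethanol (log2 fold change 1.45, SE 0.33, adjusted p = 0.00303).

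MMPs that fell under estradiol did so by small steps. Mmp23, a membrane MMP that is released by cutting its own anchor, had 3.87, 4.43 and 3.24 CPM in estradiol and 4.85, 5.25 and 5.73 CPM in ethanol libraries (log2 fold change -0.45, SE 0.16, adjusted p = 0.0372). Mmp11, stromelysin 3, which leaves the cell already active, had 5.94, 4.89 and 4.94 CPM in estradiol and 6.14, 6.89 and 7.53 CPM in ethanol libraries (log2 fold change -0.38, SE 0.13, adjusted p = 0.0397). Mmp15, a membrane-type MMP, had 112, 122 and 101 CPM in estradiol and 137, 136 and 141 CPM in ethanol libraries (log2 fold change -0.31, SE 0.058, adjusted p = 0.000797). In all 3 genes each estradiol library lay below each ethanol library, for Mmp23 and Mmp11 by a narrow gap. Mmp3, stromelysin 1, averaged 59.3 ± 6.63 CPM in estradiol and 68.7 ± 1.22 CPM in ethanol (log2 fold change -0.21, SE 0.064, adjusted p = 0.0171). The calls of 3 of these were lost in several of the fits that left out a single library. Mmp23 lost its call without estradiol library 1 or 3 or ethanol library 2 or 3 (adjusted p 0.0789 to 0.124), Mmp11 without estradiol library 2 or 3 or ethanol library 2 or 3 (0.0951 to 0.147), and Mmp3 without estradiol library 1 or 2 or ethanol library 1 (0.0619 to 0.101). Mmp14, the membrane collagenase MT1-MMP, averaged 324 ± 10.2 CPM in estradiol and 308 ± 6.3 CPM in ethanol and did not pass (log2 fold change 0.076, SE 0.04, adjusted p = 0.165; 95% interval -0.0029 to 0.15). Intervals of log2 fold changes here and below use the normal distribution, so they are narrower than the quasi-likelihood test implies. They are also not adjusted for the number of genes, and an interval without 0 is not a call.

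Adam12, a sheddase of epidermal growth factor family ligands, had 81.4, 77.0 and 73.7 CPM in estradiol and 25.4, 25.7 and 27.2 CPM in ethanol libraries. The groups were wide apart, at 2.96-fold, with the lowest adjusted p of the 45 genes (log2 fold change 1.57, SE 0.054, adjusted p = 4.66e-11). Adam19, meltrin beta, which cuts neuregulins, averaged 5.19 ± 0.31 CPM in estradiol and 3.05 ± 0.64 CPM in ethanol (log2 fold change 0.76, SE 0.17, adjusted p = 0.00356). Adam23, an ADAM without proteinase activity that binds LGI proteins, had 1.66, 1.11 and 1.22 CPM in estradiol and 2.42, 2.23 and 2.04 CPM in ethanol libraries. Its estradiol libraries lay below its ethanol libraries (log2 fold change -0.74, SE 0.25, adjusted p = 0.0341), and the call was lost without estradiol library 2 or 3 or ethanol library 1 or 2 (adjusted p 0.0764 to 0.111). Adam10, which cuts Notch receptors and E-cadherin, averaged 229 ± 3.47 CPM in estradiol and 258 ± 2.06 CPM in ethanol, a small fall between tight groups (log2 fold change -0.18, SE 0.038, adjusted p = 0.0023). Adam17, which releases tumor necrosis factor and amphiregulin, did not pass: 122 ± 2.85 CPM in estradiol and 116 ± 4.23 CPM in ethanol (log2 fold change 0.08, SE 0.045, adjusted p = 0.187; 95% interval -0.0075 to 0.17). Adam9 and Adam15, both widely expressed sheddases, did not pass either, with log2 fold changes of 0.068 (95% interval -0.015 to 0.15) and 0.0073 (95% interval -0.076 to 0.09).

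Among the ADAMTSs, 4 of the 7 that cut proteoglycans such as versican and aggrecan rose and 1 fell. Adamts20, which in mice is known from pigment cell development, had 0.495, 0.877 and 0.799 CPM in estradiol and 0.0433, 0.126 and 0.194 CPM in ethanol libraries. These are 47 counts against 8, a ratio of 6.09 (95% counting interval 2.85 to 14.9), with no overlap (log2 fold change 2.55, SE 0.53, adjusted p = 0.00179). Adamts8 averaged 9.72 ± 0.561 CPM in estradiol and 4.13 ± 0.617 CPM in ethanol (log2 fold change 1.24, SE 0.13, adjusted p = 4.23e-06). Adamts1 and Adamts15, the other rises of this role, had log2 fold changes of 0.50 and 0.62. Adamts4, aggrecanase 1, fell to 46.4 ± 1.58 CPM in estradiol, against 53.0 ± 0.795 CPM in ethanol (log2 fold change -0.19, SE 0.047, adjusted p = 0.00605). Of the 3 enzymes that trim the amino ends of procollagens, 2 rose. Adamts2 averaged 14.4 ± 1.73 CPM in estradiol and 5.56 ± 0.318 CPM in ethanol (log2 fold change 1.37, SE 0.11, adjusted p = 3.22e-07), and Adamts14 3.55 ± 0.517 CPM in estradiol and 1.75 ± 0.382 CPM in ethanol (log2 fold change 1.02, SE 0.22, adjusted p = 0.00218). Adamts7 and Adamts10 rose by 0.41 and 0.44 on the log2 scale. Adamts1, Adamts15, Adamts7 and Adamts10 are named here after their values were seen. The genes that did not pass had log2 fold changes between -0.73 (Adam28) and 0.86 (Adamts6).

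**Figure D3:**
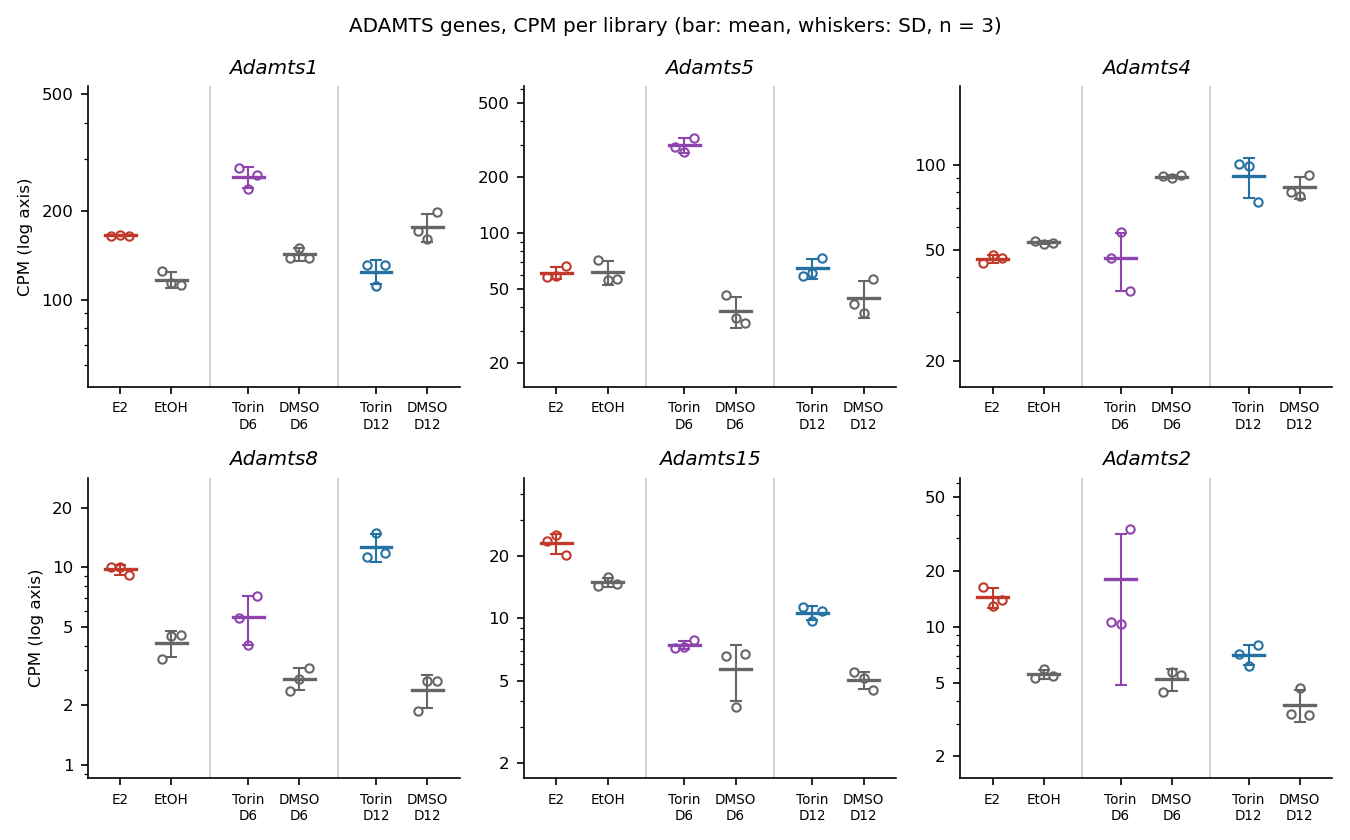
CPM of 6 ADAMTS genes in each library, on a log axis, with circles for libraries, bars for means and whiskers for the SD of 3, and each treated group left of its vehicle. Adamts5 stands at 297 CPM in Torin D6 against 38.1 CPM in DMSO D6, Adamts8 is above its vehicle in all 3 pairs, and Adamts1 is above its vehicle in estradiol and Torin D6 and below it in Torin D12.

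In the D6 arm Torin moved these genes in both directions. Of the 50 tested, 15 rose, 15 fell and 20 did not pass, which is 60% called against 39.1% of all 18112 genes (19.8% up and 19.3% down). Rises were found in 7 of 17 MMPs, 6 of 15 ADAMTSs, 2 of 4 TIMPs and 0 of 14 ADAMs. Falls were found in 5 MMPs, 5 ADAMTSs, 5 ADAMs and 0 TIMPs. The median log2 fold change was 0.10 over the 50 genes and 0.048 over all genes. In 35 of 50 genes (70% of them) the groups did not overlap, against 48.5% of all genes. Fibroblast markers fell in 11 of 12 cases in this arm, with summed levels of 307 to 346 CPM in Torin D6 and 964 to 1338 CPM in DMSO D6 libraries, and their part in the results was not tested. Among epithelial markers 3 of 11 luminal genes rose and 5 fell, and 3 of 9 basal genes rose and 2 fell.

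Timp3 was the TIMP with the firmest change: 3595, 3664 and 2919 CPM in Torin D6 and 1185, 1070.2 and 1014 CPM in DMSO D6 libraries. Every Torin library lay far above every DMSO library (log2 fold change 1.64, SE 0.12, adjusted p = 1.03e-06). Timp2 had 78.7, 91.7 and 594 CPM in Torin D6 and 61.8, 57.1 and 49.8 CPM in DMSO D6 libraries. All Torin libraries were higher, but the third by far more than the others (log2 fold change 2.18, SE 0.60, adjusted p = 0.0134). Without that library the log2 fold change was 0.59 (adjusted p = 0.000439), and without DMSO D6 library 3 the call was lost (adjusted p = 0.0521). Timp4 had 6.65, 7.59 and 7.06 CPM in Torin D6 and 5.02, 3.09 and 4.4 CPM in DMSO D6 libraries, apart but not past the threshold (log2 fold change 0.76, SE 0.33, adjusted p = 0.084), which it passed when DMSO D12 library 3 was left out (adjusted p = 0.00632). Timp1 had 141, 116 and 166 CPM in Torin D6 and 187, 159.5 and 165 CPM in DMSO D6 libraries. These groups overlapped and the difference did not pass (log2 fold change -0.27, SE 0.17, adjusted p = 0.22).

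The neighbouring MMP genes whose promoters are printed above were picked because they rose in this arm. Their rises therefore say nothing about the promoter motif. Mmp7, matrilysin, an MMP made by glandular epithelium, had 1.39, 1.31 and 1.63 CPM in the Torin D6 libraries and no count in any DMSO D6 library. These are 119 counts against 0 (adjusted p = 0.000478). The ratio was 36.5 when the vehicle group was set to a floor of 3 counts over the group. The lower limit of the counting interval was 29.2. Mmp1b had 1.36, 1.5 and 0.911 CPM in Torin D6 and 0.156, 0.224 and 0.108 CPM in DMSO D6 libraries, low in both but without overlap (log2 fold change 2.94, SE 0.64, adjusted p = 0.00333). Mmp12 had 21.0, 16.7 and 16.8 CPM in Torin D6 and 3.15, 3.22 and 1.08 CPM in DMSO D6 libraries, again well apart (log2 fold change 2.88, SE 0.31, adjusted p = 2.26e-05). Mmp13 averaged 1067 ± 129.6 CPM in Torin D6 and 196 ± 52.7 CPM in DMSO D6, a 5.45-fold rise (log2 fold change 2.45, SE 0.19, adjusted p = 1.55e-06). Mmp10, stromelysin 2, averaged 241 ± 10.3 CPM in Torin D6 and 96.6 ± 26.8 CPM in DMSO D6 (log2 fold change 1.32, SE 0.15, adjusted p = 3.24e-05). Mmp3 averaged 1593 ± 108 CPM in Torin D6 and 1076 ± 173 CPM in DMSO D6 (log2 fold change 0.57, SE 0.13, adjusted p = 0.00514). Mmp1a, the other counterpart of human collagenase 1, averaged 0.474 ± 0.286 CPM in Torin D6 and 0.654 ± 0.11 CPM in DMSO D6 and did not pass (adjusted p = 0.693). Outside this neighbourhood Mmp16, the membrane-type enzyme MT3-MMP, was the 1 MMP that rose, to 9.9 ± 2.72 CPM in Torin D6, against 4.01 ± 1.5 CPM in DMSO D6 (log2 fold change 1.3, SE 0.29, adjusted p = 0.00396).

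**Figure D4:**
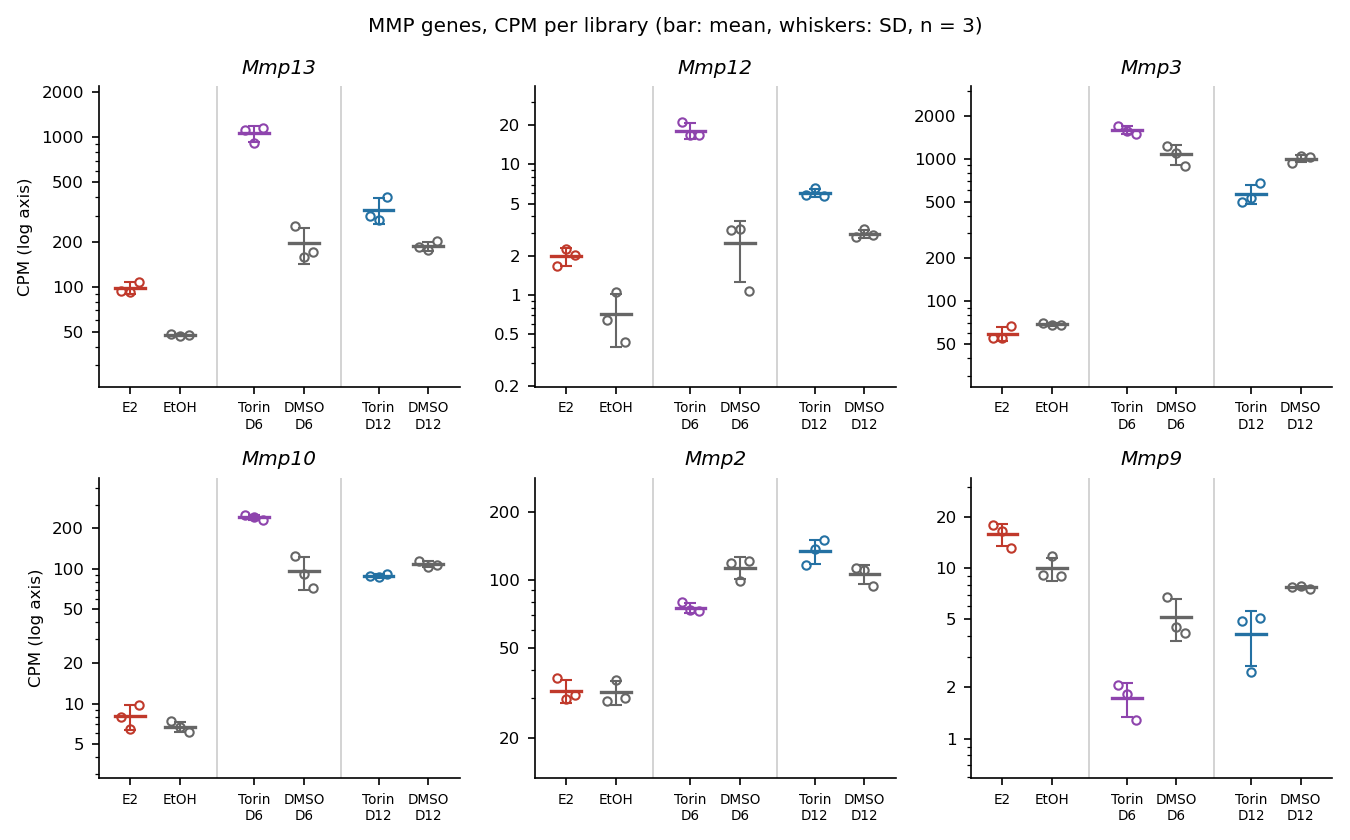
CPM of 6 MMP genes in each library, on a log axis, with circles for libraries, bars for means and whiskers for the SD of 3, and each treated group left of its vehicle. Mmp13 averages 1067 CPM in Torin D6 against 196 CPM in DMSO D6, while Mmp9 averages 1.73 CPM in Torin D6 against 5.15 CPM in DMSO D6 and is higher under estradiol.

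Other MMPs fell in D6. Mmp23 had 1.32, 0.939 and 1.52 CPM in Torin D6 and 6.3, 5.86 and 5.7 CPM in DMSO D6 libraries, far below its vehicle in every library (log2 fold change -2.24, SE 0.25, adjusted p = 2.54e-05). Both gelatinases fell. Mmp9 averaged 1.73 ± 0.40 CPM in Torin D6 and 5.15 ± 1.42 CPM in DMSO D6 (log2 fold change -1.56, SE 0.30, adjusted p = 0.00137), and Mmp2 averaged 75.2 ± 3.72 CPM in Torin D6 and 113 ± 12.6 CPM in DMSO D6 (log2 fold change -0.59, SE 0.11, adjusted p = 0.0014). Mmp19, a secreted MMP of basement membrane substrates, fell to 3.19 ± 0.31 CPM in Torin D6, against 9.02 ± 0.279 CPM in DMSO D6 (log2 fold change -1.5, SE 0.16, adjusted p = 2.2e-05). Mmp28, epilysin, an MMP of epithelia, fell by 1.13 on the log2 scale at an adjusted p of 0.0476. This call was lost without Torin D6 library 1 or 3, DMSO D6 library 2 or 3, Torin D12 library 2 or any DMSO D12 library (adjusted p 0.0602 to 0.16). Mmp14 had 86.3, 73.5 and 310.5 CPM in Torin D6 and 85.3, 88.3 and 108 CPM in DMSO D6 libraries. The third Torin library lay far above both groups and the others within or below the DMSO range, so that the log2 fold change was 0.74 (adjusted p = 0.186) with it and -0.25 (adjusted p = 0.155) without it. Without Torin D6 library 2 the gene passed (log2 fold change 1.08, adjusted p = 0.0373).

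No ADAM passed upward in D6 in the reported analysis. Adam12 averaged 7.36 ± 2.55 CPM in Torin D6 and 3.94 ± 1.14 CPM in DMSO D6. It passed upward by DESeq2 and without Torin D6 library 1 or DMSO D12 library 1 or 3. Adam19 had 1.09, 1.16 and 0.722 CPM in Torin D6 and 7.82, 5.59 and 7.62 CPM in DMSO D6 libraries. It was the largest fall among the 50 genes, with every Torin library far below every DMSO library (log2 fold change -2.82, SE 0.25, adjusted p = 4.48e-06). Adam33, known from airway smooth muscle and fibroblasts, had 1.02, 0.676 and 0.797 CPM in Torin D6 and 2.61, 2.59 and 3.29 CPM in DMSO D6 libraries, apart in all libraries (log2 fold change -1.76, SE 0.43, adjusted p = 0.00691). Adam23 averaged 4.09 ± 2.19 CPM in Torin D6 and 12.1 ± 3.84 CPM in DMSO D6 (log2 fold change -1.57, SE 0.33, adjusted p = 0.00291). Adam10 fell by 0.49 on the log2 scale. Adam8, known from leukocytes and invasive tumour cells, fell by 0.82, a call that was lost without Torin D6 library 1 or DMSO D6 library 1 or 2. Of 4 tested leukocyte markers 1 rose, Ptprc, and 2 fell, Cd68 and Csf1r. The summed level of the leukocyte list was 2165 to 2353 CPM in Torin D6 and 2354 to 2870.2 CPM in DMSO D6 libraries, and its part in the result was not tested. Adam17 averaged 135 ± 8.87 CPM in Torin D6 and 123 ± 3.37 CPM in DMSO D6 and did not pass (log2 fold change 0.14, SE 0.069, adjusted p = 0.136; 95% interval 0.003 to 0.27).

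Adamts5, aggrecanase 2, had 291, 274 and 327 CPM in Torin D6 and 46.4, 35.1 and 32.9 CPM in DMSO D6 libraries. The groups were wide apart, at 7.79-fold (log2 fold change 2.96, SE 0.18, adjusted p = 2.34e-07), while its neighbour on chromosome 16, Adamts1, rose to 262 ± 21.5 CPM in Torin D6, against 142 ± 6.92 CPM in DMSO D6 (log2 fold change 0.88, SE 0.099, adjusted p = 3.08e-05). Adamts8 averaged 5.59 ± 1.56 CPM in Torin D6 and 2.72 ± 0.349 CPM in DMSO D6 (log2 fold change 1.03, SE 0.23, adjusted p = 0.00406). In the same group of proteoglycan-cutting enzymes Adamts4 fell to 46.6 ± 10.9 CPM in Torin D6, against 91.0 ± 0.988 CPM in DMSO D6 (log2 fold change -0.97, SE 0.16, adjusted p = 0.000559). The procollagen trimming enzymes split. Adamts2 had 10.7, 10.3 and 33.7 CPM in Torin D6 and 4.43, 5.73 and 5.49 CPM in DMSO D6 libraries, with the third Torin library far above the others (log2 fold change 1.8, SE 0.40, adjusted p = 0.00359; 1.00 without it, adjusted p = 0.000819). Adamts3 and Adamts14 fell, with log2 fold changes of -0.87, SE 0.21, adjusted p = 0.00618 and -1.13, SE 0.32, adjusted p = 0.0162. Adamts6, an enzyme acting on fibrillin and other matrix proteins, had 0.712, 0.263 and 0.076 CPM in Torin D6 and 2.37, 1.52 and 2.06 CPM in DMSO D6 libraries, low counts without overlap (log2 fold change -2.46, SE 0.52, adjusted p = 0.00294; -3.52 without Torin D6 library 1). Adamts12, which cuts a cartilage matrix protein, averaged 3.57 ± 0.548 CPM in Torin D6 and 7.25 ± 0.285 CPM in DMSO D6 (log2 fold change -1.02, SE 0.23, adjusted p = 0.00471). Adamts7 and Adamts9 also rose, by 0.75 and 0.76 on the log2 scale. Adamts9 lost its call without Torin D6 library 1 or 2, DMSO D6 library 1 or 3, Torin D12 library 3 or any DMSO D12 library. Adamts7, Adamts9, Mmp3, Mmp2, Adam10, Adam8 and Adam12 are named in this arm after their values were seen. Apart from these calls, log2 fold changes lay between -0.95 (Mmp17) and 1.15 (Adamts18).

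In the D12 arm fewer of the genes passed the test. Of the 50 tested, 12 rose, 9 fell and 29 did not pass, which is 42% called against 25.4% of all genes (10.8% up and 14.6% down). Rises were found in 4 of 17 MMPs, 4 of 15 ADAMTSs, 2 of 14 ADAMs and 2 of 4 TIMPs. Falls were found in 5 MMPs, 2 ADAMs, 1 ADAMTS and 1 TIMP. The median log2 fold change was 0.11 over the 50 genes and 0.012 over all genes. In 33 of 50 genes (66% of them) the groups did not overlap, against 43.7% of all genes. Of the 12 fibroblast markers 1 rose and 2 fell, with summed levels of 783 to 1111 CPM in Torin D12 and 968 to 1126 CPM in DMSO D12 libraries, and their part in the results was not tested. Among epithelial markers 0 of 11 luminal genes rose and 5 fell, and 2 of 9 basal genes rose and 4 fell.

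Timp4 had 22.2, 23.3 and 20.5 CPM in Torin D12 and 4.12, 4.89 and 1.47 CPM in DMSO D12 libraries. All Torin libraries lay far above all DMSO libraries, at 6.29-fold (log2 fold change 2.65, SE 0.34, adjusted p = 0.000162). Timp3 had 1387, 1279 and 1683 CPM in Torin D12 and 1014, 1032 and 1074 CPM in DMSO D12 libraries, higher in every Torin library (log2 fold change 0.48, SE 0.12, adjusted p = 0.0106). Timp1 had 82.2, 90.2 and 133 CPM in Torin D12 and 172, 178 and 169 CPM in DMSO D12 libraries. It fell, with every Torin library below the DMSO libraries (log2 fold change -0.77, SE 0.17, adjusted p = 0.00574). Timp2 had 48.9, 55.5 and 47.1 CPM in Torin D12 and 57.4, 56.6 and 59.0 CPM in DMSO D12 libraries, slightly lower in each but not past the threshold (log2 fold change -0.19, SE 0.58, adjusted p = 0.855). Torin D6 library 3 also sets this SE, since spread was estimated over both arms, and without it the log2 fold change was -0.17 (adjusted p = 0.178).

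Of the MMPs, Mmp16 rose to 11.1 ± 0.935 CPM in Torin D12, against 2.6 ± 0.565 CPM in DMSO D12 (log2 fold change 2.1, SE 0.30, adjusted p = 0.000364). Mmp13 averaged 327 ± 64.3 CPM in Torin D12 and 188 ± 12.9 CPM in DMSO D12 (log2 fold change 0.80, SE 0.18, adjusted p = 0.00692). Mmp12 averaged 6.04 ± 0.452 CPM in Torin D12 and 2.95 ± 0.216 CPM in DMSO D12 (log2 fold change 1.03, SE 0.30, adjusted p = 0.0254), and Mmp2 134 ± 16.7 CPM in Torin D12 and 106 ± 10.3 CPM in DMSO D12 (log2 fold change 0.34, SE 0.11, adjusted p = 0.0414). Mmp3 went the other way and fell to 569.5 ± 91.0 CPM in Torin D12, against 1003 ± 57.1 CPM in DMSO D12 (log2 fold change -0.82, SE 0.13, adjusted p = 0.000868). Mmp28 had 0.304, 0.493 and 0.735 CPM in Torin D12 and 1.69, 1.49 and 1.47 CPM in DMSO D12 libraries. Mmp23 had 2.89, 1.67 and 2.55 CPM in Torin D12 and 4.93, 5.81 and 6.77 CPM in DMSO D12 libraries. Mmp9 had 4.87, 2.46 and 5.07 CPM in Torin D12 and 7.73, 7.86 and 7.58 CPM in DMSO D12 libraries. All 3 were lower in every Torin library, with log2 fold changes of -1.59, SE 0.39, adjusted p = 0.0112 for Mmp28, -1.3, SE 0.23, adjusted p = 0.00177 for Mmp23 and -0.90, SE 0.28, adjusted p = 0.0346 for Mmp9. Mmp19 fell as well (log2 fold change -0.48, SE 0.16, adjusted p = 0.0413). Mmp7 had 4 counts in Torin D12 and 0 in DMSO D12, so no fold change is given. Calls near the threshold were lost in several of the fits that left out a single library. Mmp12 and Mmp9 each lost theirs without Torin D12 library 1 or 2 or any DMSO D12 library (adjusted p 0.0553 to 0.0875 at log2 fold changes of 0.97 to 1.09, and 0.0502 to 0.103 at -1.03 to -0.64). Mmp2 did so without Torin D12 library 2 or 3, any DMSO D12 library or DMSO D6 library 1 or 3 (0.0522 to 0.155). Mmp19 did so without Torin D12 library 1 or 2, any DMSO library of either arm or Torin D6 library 1 (0.057 to 0.154). Mmp14 averaged 102 ± 12.5 CPM in Torin D12 and 83.1 ± 5.92 CPM in DMSO D12 and did not pass (log2 fold change 0.29, SE 0.42, adjusted p = 0.671; 0.31 without Torin D6 library 3, adjusted p = 0.0502). Mmp10 averaged 89.0 ± 2.83 CPM in Torin D12 and 108 ± 5.74 CPM in DMSO D12 and did not pass (log2 fold change -0.28, SE 0.15, adjusted p = 0.196), except when DMSO D6 library 1 was left out (adjusted p = 0.0426).

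Adam8 had 5.1, 5.53 and 2.41 CPM in Torin D12 and 17.2, 17.9 and 26.5 CPM in DMSO D12 libraries. It was the largest fall of this arm and its groups were far apart (log2 fold change -2.24, SE 0.29, adjusted p = 0.000174). Of 4 tested leukocyte markers 0 rose and 1 fell, Cd68, by 2.69 on the log2 scale. The summed level of the leukocyte list was 2519 to 2584 CPM in Torin D12 and 2625 to 2829 CPM in DMSO D12 libraries, and its part in the result was not tested. Adam11, an inactive ADAM known from neurons, had 4.26, 3.07 and 4.09 CPM in Torin D12 and 0.626, 0.991 and 0.957 CPM in DMSO D12 libraries, all Torin libraries being higher (log2 fold change 2.14, SE 0.26, adjusted p = 0.000123). Adam21, known from the testis, had 15 counts in Torin D12 and 0 in DMSO D12 (adjusted p = 0.0341). The Torin D12 libraries had 0.152, 0.0379 and 0.35 CPM. The ratio was 5.08 against a floor of 3 counts over the group, and the lower limit of the counting interval was 3.64. The call was lost without Torin D12 library 1 or 3 or any DMSO D12 library (adjusted p 0.0609 to 0.0946), and DMSO D6 held 19 counts of the gene. Adam17 averaged 106 ± 4.6 CPM in Torin D12 and 124 ± 5.96 CPM in DMSO D12 (log2 fold change -0.23, SE 0.069, adjusted p = 0.03), a small fall whose call was lost without Torin D12 library 2 or 3 or DMSO D12 library 1 or 2 (adjusted p 0.0569 to 0.122). Adam10 averaged 345 ± 44.1 CPM in Torin D12 and 416 ± 22.2 CPM in DMSO D12 and did not pass (log2 fold change -0.27, SE 0.11, adjusted p = 0.0824), except when Torin D6 library 3 was left out (adjusted p = 0.0494).

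Among ADAMTSs, Adamts8 had 11.2, 14.9 and 11.8 CPM in Torin D12 and 1.88, 2.66 and 2.65 CPM in DMSO D12 libraries. Each Torin library was several times higher (log2 fold change 2.4, SE 0.24, adjusted p = 2.62e-05). Its neighbour on chromosome 9, Adamts15, averaged 10.7 ± 0.825 CPM in Torin D12 and 5.05 ± 0.486 CPM in DMSO D12 (log2 fold change 1.08, SE 0.20, adjusted p = 0.00227). Adamts10, which binds fibrillin, averaged 17.9 ± 0.328 CPM in Torin D12 and 11.3 ± 0.766 CPM in DMSO D12 (log2 fold change 0.66, SE 0.18, adjusted p = 0.0164; adjusted p = 0.0622 without DMSO D12 library 3). Adamts5 averaged 64.8 ± 8.0 CPM in Torin D12 and 45.1 ± 10.2 CPM in DMSO D12 (log2 fold change 0.52, SE 0.17, adjusted p = 0.0389), and lost its call without any Torin D12 library, DMSO D12 library 1 or 2 or DMSO D6 library 2 (adjusted p 0.0514 to 0.152). Adamts1 fell to 125 ± 11.7 CPM in Torin D12, against 177 ± 19.6 CPM in DMSO D12 (log2 fold change -0.50, SE 0.099, adjusted p = 0.00298). Genes that did not pass in this arm had log2 fold changes between -1.75 (Mmp1a) and 1.74 (Adamts18), Mmp7 aside. Of these, Adamts2, Adamts7, Adamts9 and Adamts14 passed upward and Adam9, Adam10 and Adam19 downward when Torin D6 library 3 was left out. Adamts7, Adamts9 and Adam19 also did so by DESeq2. Mmp1a and Adam33 passed downward without Torin D12 library 3, and Adamts18 upward without DMSO D12 library 2 or DMSO D6 library 1. The genes that passed in these fits, other than Adam10, are named here after their values were seen.

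The effect of Torin differed between the arms in 20 of the 50 genes, 10 with a higher and 10 with a lower log2 fold change in D12 than in D6. This is 40% of them, against 10.6% of all genes (5.03% higher and 5.55% lower). The arms shared no libraries. Lower in D12 were, by the most, Mmp1b (-3.18, SE 0.92, adjusted p = 0.0472), Adamts5 (-2.44, SE 0.24, adjusted p = 8.25e-05), Mmp12 (-1.85, SE 0.42, adjusted p = 0.0168), Mmp13 (-1.65, SE 0.26, adjusted p = 0.00175), Mmp10 (-1.6, SE 0.21, adjusted p = 0.000567) and Adam8 (-1.42, SE 0.39, adjusted p = 0.0392), the difference of log2 fold changes being given for each. Of these 6, 4 lie in the chromosome 9 neighbourhood, which also holds the tested genes Mmp3, Mmp1a and Mmp7. The 6 were picked by the size of the difference, so this count does not show a result particular to that neighbourhood. Higher in D12 were Adam19 (2.2, SE 0.33, adjusted p = 0.00137), Adam11 (2.09, SE 0.36, adjusted p = 0.00341), Timp4 (1.89, SE 0.46, adjusted p = 0.0225), Adamts14 (1.7, SE 0.44, adjusted p = 0.0309), Adam23 (1.65, SE 0.46, adjusted p = 0.0422) and Adamts8 (1.36, SE 0.33, adjusted p = 0.0204). Opposite calls in the arms were made for 3 genes: Mmp3 and Adamts1 rose in D6 and fell in D12, and Mmp2 fell in D6 and rose in D12. Called in the same direction in both arms were 6 rises (Adamts5, Adamts8, Mmp12, Mmp13, Mmp16 and Timp3) and 5 falls (Adam8, Mmp19, Mmp23, Mmp28 and Mmp9). The share of all genes called alike or oppositely in both arms was not worked out. Timp2 differed by -2.37 with all libraries and did not pass (adjusted p = 0.0991), but passed without Torin D6 library 3 (-0.76, adjusted p = 0.00255), library 1 (-2.78, 0.0326) or library 2 (-2.77, 0.0351). Mmp14 did not pass with all libraries, but passed as higher in D12 without Torin D6 library 3. Adamts2 passed neither with that library nor without it. Of the differences named here and of 2 others, Adam17 and Adamts3, the following lost their call when a single library was left out. Mmp1b lost it without any library but Torin D6 library 3 and Torin D12 library 3 (adjusted p 0.0611 to 0.162), and its difference was -3.85 without Torin D12 library 3 and -2.54 without DMSO D12 library 2. Adam23 lost it without any library but Torin D6 library 3 and DMSO D6 library 2 (0.0531 to 0.116). Adam8 did without Torin D6 library 1 or 2, DMSO D6 library 2 or 3, Torin D12 library 1 or any DMSO D12 library (0.0533 to 0.103). Adamts14 did without Torin D12 library 2 or any DMSO library of either arm (0.0505 to 0.0816). Timp4 did without DMSO D6 library 1 or 3 or Torin D12 library 2 (0.0557 to 0.0618), and Adamts8 without DMSO D6 library 3, Torin D12 library 2 or DMSO D12 library 1 (0.0535 to 0.0611). Adam17 (-0.37, adjusted p = 0.0335) lost it without any library but Torin D6 library 3, Torin D12 library 3 and DMSO D12 library 3. Adamts3 (1.09, adjusted p = 0.0335) lost it without DMSO D6 library 1 or 3, Torin D12 library 1 or 2 or DMSO D12 library 2 or 3. Both also lost it with no filter on low counts. Timp1 had -0.49 and did not pass (adjusted p = 0.23), except without Torin D12 library 3 (-0.73, adjusted p = 0.0197), and Timp3 had -1.16, SE 0.17, adjusted p = 0.00104. Fibroblast marker levels differed between the Torin groups of the arms as given above, and their part in these differences was not tested.

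**Figure D5:**
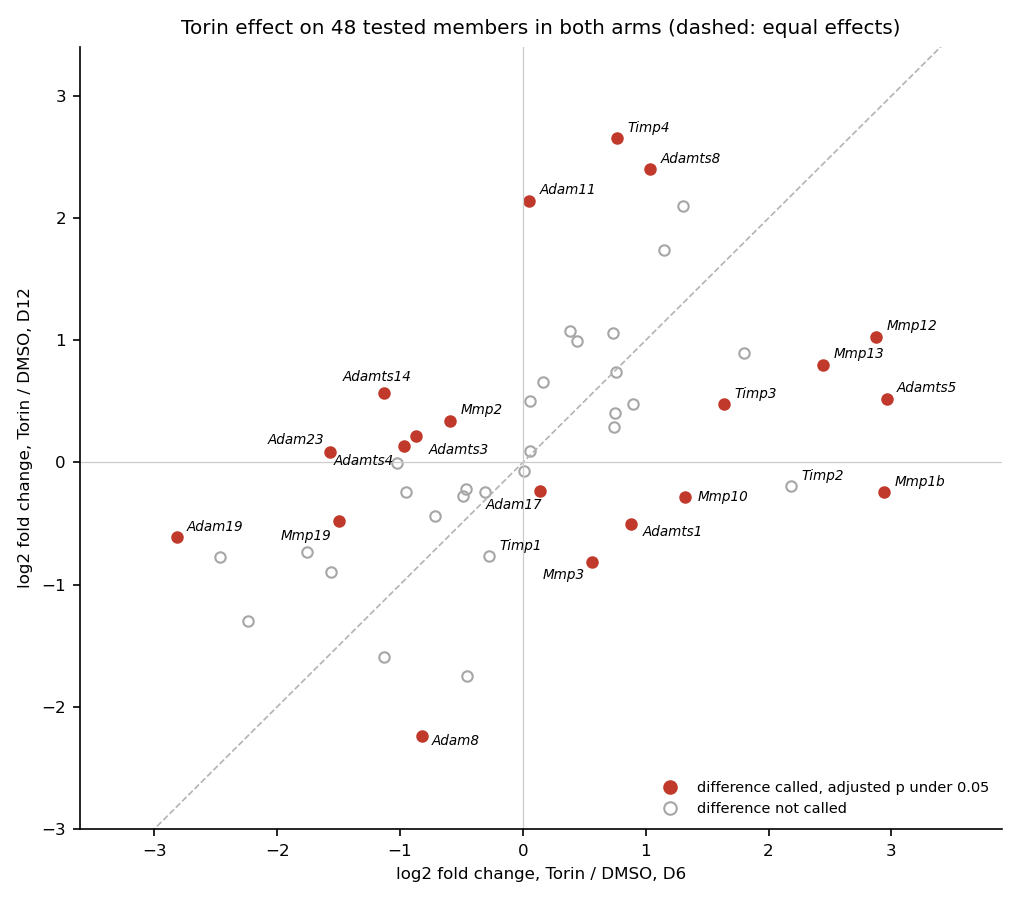
Log2 fold change of Torin over DMSO in D6 (x axis) and in D12 (y axis) for 48 tested genes, leaving out Mmp7 and Adam21, which have no count in a vehicle group. The dashed line marks equal effects, and filled points are the genes whose difference passed the test. Mmp12, Mmp13 and Adamts5 lie right of the line, with larger rises in D6, and Timp4, Adam11 and Adamts8 lie above it, with larger rises in D12.

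The vehicle groups of the arms were close. Between DMSO D12 and DMSO D6, 0 of the 50 genes passed (0.00552% of all genes did) by edgeR's quasi-likelihood test, and 0 by DESeq2 or limma, while 3 had an unadjusted p under 0.05. These were Adam11 (log2 fold change -0.91), Adamts1 (0.31) and Adam21, with 0 counts in DMSO D12 and 19 in DMSO D6. The share of all genes at this unadjusted cut was not counted, so these 3 are not read as differences between the vehicle groups. In 9 of 50 genes (18% of them) the groups did not overlap, against 12.2% of all genes. Timp1, Timp2, Timp3 and Timp4 had log2 differences of 0.023, 0.037, -0.068 and -0.26, none past the threshold.

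Estradiol and Torin, which share no libraries, were set side by side over the 44 genes tested in both. Mmp1b, Mmp12, Mmp13, Timp3, Adamts1, Adamts2, Adamts7 and Adamts8 rose under estradiol and in Torin D6, 8 of the 16 rises under estradiol and of the 13 in D6 among these 44 genes. Adam10, Adam23, Adamts4 and Mmp23 fell in both, 4 of the 8 falls under estradiol and of the 14 in D6. Adam19, Adamts14 and Mmp9 rose under estradiol and fell in D6, and Mmp3 and Timp2 fell under estradiol and rose in D6. In D12, 7 genes rose as under estradiol (Timp3, Timp4, Mmp12, Mmp13, Adamts8, Adamts10 and Adamts15), of 16 rises under estradiol and 10 in D12. Mmp23 and Mmp3 fell in both, and Timp1, Mmp9 and Adamts1 rose under estradiol and fell in D12. No gene fell under estradiol and rose in D12. The share of all genes called alike in both experiments was not worked out. These counts therefore do not show whether the overlap is particular to these genes.

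Genes that work with these proteinases were counted by list. Over all genes 34% were called under estradiol, 39.1% in Torin D6 and 25.4% in Torin D12, and a list with a share near these says nothing particular about its genes. Plasmin activates several MMP zymogens, and of 8 tested genes of plasminogen activation and its inhibitors 6 rose and 0 fell under estradiol, 2 rose and 2 fell in Torin D6, and 1 rose and 4 fell in Torin D12. Serpinb2, an inhibitor of the plasminogen activators, averaged 24.8 ± 3.4 CPM in estradiol and 12.1 ± 1.46 CPM in ethanol (log2 fold change 1.03, SE 0.11, adjusted p = 3.94e-06), and 4.59 ± 1.9 CPM in Torin D12 and 22.7 ± 3.53 CPM in DMSO D12 (log2 fold change -2.3, SE 0.33, adjusted p = 0.000355). Serpine2, a serine proteinase inhibitor, rose under estradiol by 0.29 on the log2 scale. Plaur, the receptor of urokinase, rose in D6 to 32.7 ± 4.19 CPM in Torin D6, against 8.5 ± 1.67 CPM in DMSO D6 (log2 fold change 1.94, SE 0.22, adjusted p = 3.57e-05).

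Of other regulators of metalloproteinases, 2 of 9 rose and 2 fell under estradiol, 4 of 10 rose and 4 fell in D6, and 4 rose and 3 fell in D12. Bsg, a membrane protein known to induce MMPs in neighbouring cells, fell in all 3 comparisons. It averaged 684 ± 15.7 CPM in estradiol and 1059 ± 72.0 CPM in ethanol (log2 fold change -0.63, SE 0.046, adjusted p = 1.17e-07). It averaged 813 ± 36.8 CPM in Torin D6 and 2501 ± 329.8 CPM in DMSO D6 (log2 fold change -1.62, SE 0.10, adjusted p = 3.92e-07), and 1059.8 ± 81.4 CPM in Torin D12 and 2727 ± 167 CPM in DMSO D12 (log2 fold change -1.36, SE 0.10, adjusted p = 5.01e-06). Papln, papilin, an inhibitor of a procollagen N-proteinase, rose under estradiol (log2 fold change 1.0, SE 0.054, adjusted p = 4.12e-09). Cd44, which holds Mmp9 at the cell surface, rose in D6 (log2 fold change 0.73, SE 0.066, adjusted p = 5.44e-06). Mbtps1, a proteinase of the secretory pathway, rose in D12 by 0.58 on the log2 scale.

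The partners and substrates of ADAM10 and ADAM17 moved in both directions. Of 8 iRhoms, TspanC8 tetraspanins and their partners, which carry these ADAMs to the surface, 3 rose and 3 fell under estradiol, 3 rose and 2 fell in D6, and 1 rose and 2 fell in D12. Tspan14 fell in D6 (log2 fold change -0.53, SE 0.06, adjusted p = 3.28e-05) and in D12 (log2 fold change -0.37, SE 0.06, adjusted p = 0.000899). Tspan5 had a log2 fold change of -0.41 under estradiol and Tspan17 of -0.48 in D12. Frmd8, which stabilises iRhoms, rose by 0.33 under estradiol and by 0.32 in D6. Of 21 substrates that these ADAMs release, 11 rose and 6 fell under estradiol, 9 rose and 3 fell in D6, and 2 rose and 5 fell in D12. Areg, amphiregulin, averaged 42.6 ± 7.29 CPM in Torin D6 and 10.3 ± 0.823 CPM in DMSO D6 (log2 fold change 2.05, SE 0.13, adjusted p = 3.73e-07). Cxcl16, a membrane-bound chemokine, rose under estradiol (log2 fold change 0.66, SE 0.051, adjusted p = 1.84e-07) and in D6 (log2 fold change 1.71, SE 0.12, adjusted p = 7.14e-07). Jag1, a Notch ligand, rose under estradiol by 0.39 on the log2 scale. The receptor Tnfrsf1b fell in D12 (log2 fold change -1.26, SE 0.15, adjusted p = 0.000123), and the chemokine Cx3cl1 had a log2 fold change of -0.70 there.

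Among ADAMTS-like and astacin proteins, 2 of 7 rose and 0 fell under estradiol, 4 of 8 rose and 3 fell in D6, and 2 rose and 2 fell in D12. Tll1, an astacin proteinase that cuts procollagen ends, averaged 2.74 ± 0.265 CPM in estradiol and 0.606 ± 0.19 CPM in ethanol (log2 fold change 2.16, SE 0.29, adjusted p = 4.49e-05), and Adamtsl3 rose in D6 (log2 fold change 1.9, SE 0.21, adjusted p = 2.64e-05) and D12 (log2 fold change 1.56, SE 0.21, adjusted p = 0.000267). Bmp1, another astacin, rose by 0.41 under estradiol and Adamtsl4 by 1.23 in D6, while Tll2 had -2.33 in D12. Of the hyaluronan-binding proteoglycans and their partners, 1 of 5 rose under estradiol, 1 of 9 rose and 3 fell in D6, and 2 rose and 1 fell in D12. Has2, a hyaluronan synthase, was the rise under estradiol (log2 fold change 0.61, SE 0.056, adjusted p = 1.16e-06). Has1 and the proteoglycan Dcn had log2 fold changes of -1.78 and -1.36 in D6, and the link proteins Hapln3 and Hapln1 of 1.47 and 2.79 in D12. Dcn is also among the fibroblast markers. Of 9 AP-1 subunits 1 rose and 1 fell under estradiol, 1 rose and 2 fell in D6, and 0 rose and 3 fell in D12. Fosl1 rose under estradiol to 3.73 ± 0.335 CPM, against 1.61 ± 0.486 CPM in ethanol (log2 fold change 1.2, SE 0.23, adjusted p = 0.000979). Jun fell in all 3 comparisons, by 0.16 on the log2 scale under estradiol, by 1.1 in D6 and by 0.83 in D12. Jund passed upward in D6 with levels between 7.84 and 652 CPM in the Torin libraries and between 7.61 and 8.77 CPM in the DMSO libraries, a spread set by a single Torin library. Fosl2 had a log2 fold change of -0.75 in D12. The partner genes named are up to 2 of lowest p past the threshold in each list and comparison. Their values in the other comparisons are not all given here.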

How the data were processed

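Per the submitters' processing notes, reads were handled with Trim Galore, cutadapt, FastQC, MultiQC, kallisto and DESeq2 on GRCm39, and versions, roles and settings are not given in the sources used here. The estradiol table deposited by the authors holds an estimated count per gene and library, and since 32.2% of its values had a fraction, all were rounded. The deposited Torin table holds counts without fractions, under gene symbols. A normalized signal, deposited by the authors beside both, served in 1 alternative. Estradiol column names carry J1 where titles say 11 days, and columns were matched by treatment and replicate number.

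Each experiment was fitted separately over all genes with edgeR 4.0.16 in R 4.3.3 (filterByExpr, TMM scaling, group means, quasi-likelihood test, Benjamini-Hochberg adjustment, threshold 0.05), and the fit was tested on simulated data. The estradiol fit held 6 libraries and the Torin fit 12, so leaving out a library of one Torin arm also moves the shared spread of the other. Alternatives were RLE scaling, DESeq2 1.42.0, no filter, a filter of 1 CPM in 3 libraries, limma 3.58.1 on log2(signal + 1) for genes with a mean of at least 10, a replicate block, and each library left out. Counting intervals are at 95% and, like the floor of 3 counts, cover counting error only. Members, role groups and partner lists were chosen with earlier results of these data known. Named were all TIMPs, the 12 largest rises and falls past the threshold in each treatment comparison, genes that did not pass among the 10 most abundant, the 6 largest differences each way between the arms, and up to 2 partners per list and comparison. One partner gene that this rule picked is not reported here. Per-library values are given for the TIMPs and the 4 largest rises and falls. Proteins were not compared.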

Additional observations from a re-analysis of the deposited data

Results flagged for a closer look

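The effect of Torin differed between the D12 and D6 arms in 20 genes, by the test of the difference itself (edgeR, adjusted p under 0.05). All values are the log2 fold change in D12 minus that in D6. Among MMPs the difference was -3.18 for Mmp1b, -1.85 for Mmp12, -1.65 for Mmp13, -1.6 for Mmp10, -1.38 for Mmp3, 1.02 for Mmp19 and 0.93 for Mmp2. Among ADAMTSs it was -2.44 for Adamts5, -1.38 for Adamts1, 1.7 for Adamts14, 1.36 for Adamts8, 1.1 for Adamts4 and 1.09 for Adamts3. Among ADAMs it was 2.2 for Adam19, 2.09 for Adam11, 1.65 for Adam23, -1.42 for Adam8 and -0.37 for Adam17. Among TIMPs it was 1.89 for Timp4 and -1.16 for Timp3. Mmp1b, Adam23, Adam17, Adam8 and Adamts14 each lost their call in more than 6 of the 12 fits that left out a single library, Adamts3 in 6, and Timp4 and Adamts8 in 3. Arm, batch tag and start of treatment cannot be told apart in these differences.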

How the results depend on the processing

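No call was reversed under any alternative run. Among values that did not pass, signs were compared only for genes picked by the naming rule in that comparison. There the sign changed without a single library for Mmp14 in D6, Adam15 under estradiol, and Timp1, Timp2 and Timp4 between the DMSO groups. Under estradiol, falls numbered 8 in the reported analysis, 5 by DESeq2, 5 with no filter, 4 by limma on the deposited signal, and 4 to 6 with single libraries left out. Differences between the arms that were higher in D12 numbered 10, and 5 to 11 with single libraries left out. With libraries left out, rises numbered 17 to 19 under estradiol, 13 to 16 in D6 and 8 to 16 in D12. The replicate numbers did not pair the libraries, since same-numbered libraries correlated at -0.094 to 0.093 in their deviations, and with the replicate number as a block, 17 rises and 6 falls were called under estradiol, 15 and 13 in D6, 10 and 9 in D12, and 10 and 8 for the difference. Calls that DESeq2 did not make were Mmp1b, Adamts20, Mmp11, Adam23 and Mmp23 under estradiol, Timp2 and Mmp28 in D6, and Adam21 in D12. Depth limits the calls on Mmp1b, Mmp7, Adam21 and Adamts20, which rest on few counts.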

Other observations

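Levels of several genes differed widely between the vehicle groups of the experiments, which were cultured for different times from mice of different age and were counted in separate tables, so no test was made. Mmp3 averaged 1076 ± 173 CPM in DMSO D6, 1003 ± 57.1 CPM in DMSO D12 and 68.7 ± 1.22 CPM in ethanol libraries. Mmp10 averaged 96.6 ± 26.8 CPM in DMSO D6, 108 ± 5.74 CPM in DMSO D12 and 6.73 ± 0.617 CPM in ethanol libraries. Mmp14 was lower in the Torin experiment, at 93.9 ± 12.4 CPM in DMSO D6, 83.1 ± 5.92 CPM in DMSO D12 and 308 ± 6.3 CPM in ethanol libraries, and Adam12 was at 3.94 ± 1.14 CPM in DMSO D6, 3.96 ± 2.09 CPM in DMSO D12 and 26.1 ± 0.95 CPM in ethanol libraries. Adamts20 was tested in the estradiol experiment only. In the Torin experiment it had 21 counts in Torin D6 and 0 in DMSO D6, and the second Torin D6 library had none. The ratio was 6.43 against a floor of 3 counts over the group, and the lower limit of the counting interval was 4.79.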
